A study of Mus musculus with 12 samples.

Results

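The chemokine system was followed in the lungs of neonatal mice through 56 genes, 34 ligands and 22 receptors, among 22180 genes that could be named on the arrays. The members were all genes with 1 platform symbol that begins with Ccl, Cxcl, Xcl, Ccr, Cxcr, Xcr or Ackr followed by a digit, together with Cx3cl1 and Cx3cr1. Each gene was represented by its transcript with the highest mean over the 12 arrays, and only Ccl27a had more than 1 such transcript. Whole-lung RNA of 12 pups was measured, 1 array per mouse and 3 mice in each of 4 groups. WT RA mice were wild type pups kept in room air, and WT HO mice were wild type pups kept in 75% oxygen for 7 days from postnatal day 1. SK RA and SK HO mice carried a germline deletion of Sphk1 (Sphk1-/-), the kinase that makes sphingosine 1-phosphate, and were kept under the same room air or hyperoxia. Per the methods, the wild type controls had a mixed C57BL/6 and original background, the Sphk1-/- line had been backcrossed to C57BL/6 for only a few generations, and the lungs were flushed with saline before a right upper lobe was collected for RNA. Nothing in the labels ties a mouse to a litter.

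Chemokines are small secreted proteins that direct the movement of leukocytes along a gradient, and they are grouped by the spacing of their first cysteines into CC, CXC, XC and CX3C families. They bind membrane receptors that signal through inhibitory G proteins. Atypical receptors bind the same ligands without that signal and clear them. In lungs injured by oxygen, chemokines made by macrophages, epithelium and fibroblasts are known for bringing in neutrophils and monocytes, while others such as Cxcl12 and its receptor Cxcr4 also act in the growth of vessels and tissue.

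Values are log2 expression values, and they were compared for each gene between groups and never between genes. The arrays carried the markers of lung in every mouse, with Sftpc, the surfactant protein of alveolar type 2 cells, at 12.59 to 13.40 and Scgb1a1, the secretory protein of club cells, at 12.50 to 13.02. Sphk1 itself was at 4.90 to 5.40 in WT RA, 5.59 to 5.84 in SK RA, 6.79 to 7.50 in WT HO and 5.57 to 6.28 in SK HO mice. The part of the gene that the probes cover was not set against the deleted part, so these values check no label. The methods describe male pups, yet Xist was high and the Y-linked gene Eif2s3y low in 8 of the 12 mice, and the reverse held in SK HO 2, SK HO 1, SK RA 1 and WT RA 3. No WT HO mouse showed the reverse. The pattern was thus unbalanced between the HO groups and between HO and RA mice of each genotype, and so in the interaction. These comparisons were refitted with a covariate of Y-linked genes. The transcript values of SK RA 1 had a median of 4.99 and those of SK HO 1 a median of 4.89, against 4.76 to 4.85 in the other 10 arrays. SK RA 1 also had an adipocyte marker score (the mean log2 value of the marker genes, each relative to its mean over 12 arrays) of 1.33, while SK RA 2 and SK RA 3 had -0.38 and -0.19, and WT HO 2 had 1.10, while WT HO 1 and WT HO 3 had -0.12 and 0.05. Of the 56 members, 13 had no group mean above 4.64, the level under which 95% of 1405 olfactory and vomeronasal receptor transcripts lay, and these are described as near background. They were Cxcl3, Cxcl11, Ccl1, Ccl26, Ccr3, Ccr4, Ccr6, Ccr9, Ccr10, Ccr1l1, Cxcr6, Ackr1 and Ackr4. None of them was called in any comparison. A further 8 of the members that rose in WT HO mice (Ccl2, Ccl3, Ccl8, Ccl12, Ccl17, Ccl20, Cxcl5 and Ccr8) and 2 that rose in SK HO mice (Ccl2 and Cxcl10) had a mean under 4.64 in the RA group, as Ccl8 had in SK HO mice. The size of these differences depends on values near background, and against 4.64 itself they come to lower bounds from 0.06 for Ccr8 to 3.23 for Ccl17.

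Hyperoxia was accompanied by higher chemokine ligand expression in WT pups and by a smaller set of such changes in SK pups. In WT HO against WT RA mice, 20 members rose and 2 fell at an adjusted p under 0.05, or 39.3% of the members, while 14.9% of all transcripts (8.58% upward and 6.35% downward) and 21.6% of all named genes were called. In SK HO against SK RA mice, 8 members rose and 2 fell, or 17.9% of the members, against 2.34% of all transcripts (1.02% upward and 1.32% downward) and 3.58% of named genes. With only the arrays of 1 genotype in the fit, 21 of the 22 WT calls were made (all but Ccl27a) and 0 of the 10 SK calls, with Ccl3 at an adjusted p of 0.0693 and Ccl11 at 0.0901 in SK mice. The median change over the 56 members was 0.45 in WT and 0.12 in SK mice, while the medians over all transcripts were 0.01 and -0.00. Over the 34 ligands the median was 0.63 in WT and 0.47 in SK mice, and over the 22 receptors 0.16 and -0.12. Of the 34 ligands, 16 rose and 1 fell in WT and 8 rose and 1 fell in SK mice, while of the 22 receptors 4 rose and 1 fell in WT and 0 rose and 1 fell in SK mice. The 3 WT HO mice lay above all 3 WT RA mice for 28 members and below them for 4, where 34.3% of all transcripts were so separated (18.9% above and 15.4% below). The SK HO mice lay above the SK RA mice for 18 members and below them for 7, where 17.1% of all transcripts were (8.03% above and 9.1% below). In whole-lung RNA, a change in the number of cells that make a chemokine and a change in the RNA that each of them makes cannot be told apart.

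**Figure D1:**
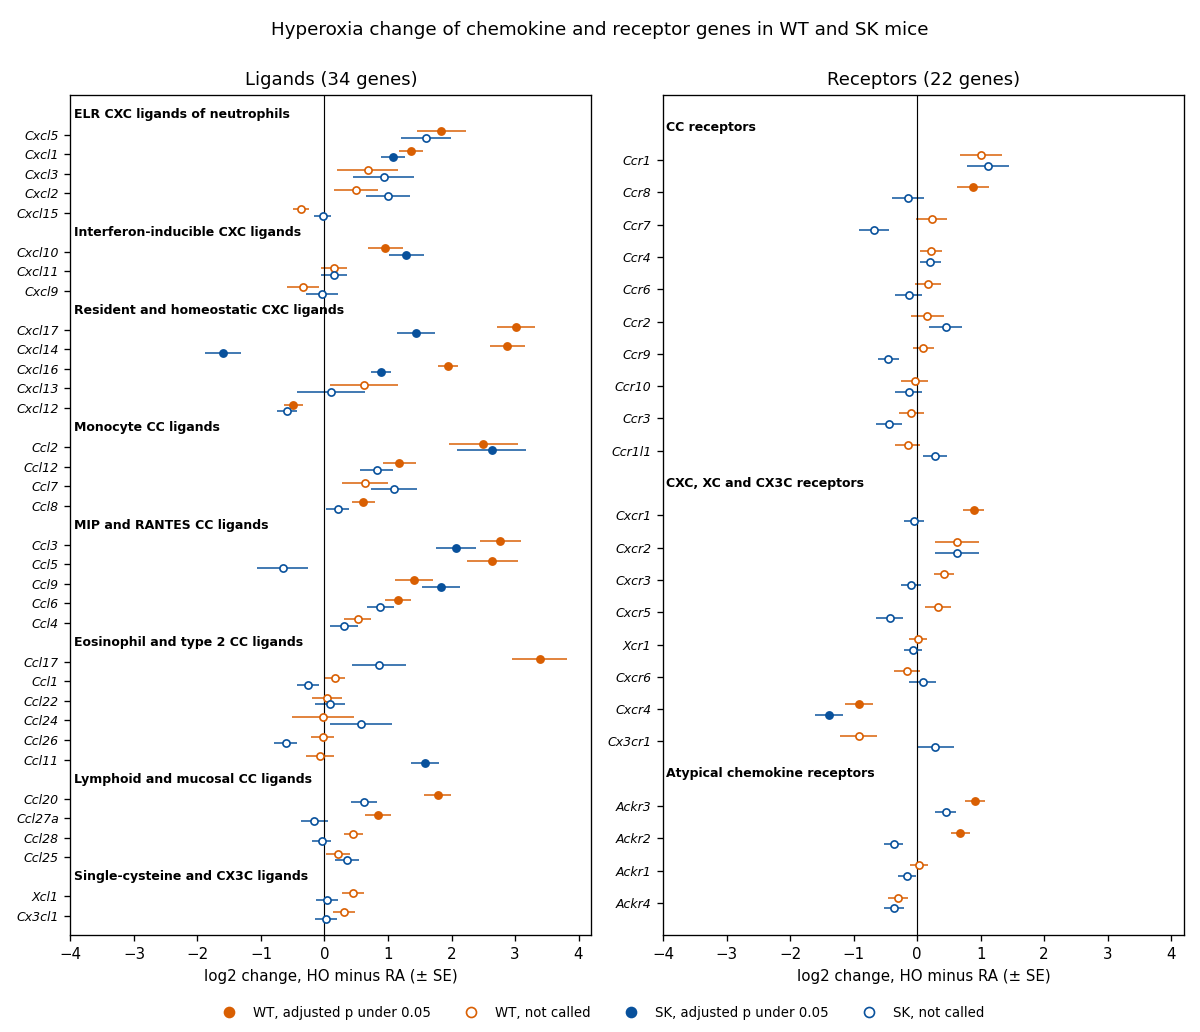
Log2 change with hyperoxia (HO minus RA, horizontal axis, ± SE) of 34 ligand and 22 receptor genes, grouped by role, in WT mice (orange) and SK mice (blue), 3 mice per group. Filled points passed an adjusted p under 0.05, and most of them are ligands to the right of 0. Cxcl14 stands at 2.88 in WT and at -1.60 in SK mice.

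The changes of the 2 genotypes overlapped in part. They compare different arrays, but the fit gave both the same estimate of the spread, taken from all 12 arrays. Of the 20 members that rose in WT and the 8 that rose in SK mice, 7 were the same genes, 7 of 20 and 7 of 8. These were Ccl2, Ccl3, Ccl9, Cxcl1, Cxcl10, Cxcl16 and Cxcl17. The overlap of such calls over all transcripts was not counted, so this overlap is not shown to be particular to the members. Cxcr4 fell in both, Cxcl14 rose in WT and fell in SK mice, and Ccl11 was called in SK mice alone. The 13 members called in WT mice alone were Ccl5, Ccl6, Ccl8, Ccl12, Ccl17, Ccl20, Ccl27a, Cxcl5, Cxcl12, Ccr8, Cxcr1, Ackr2 and Ackr3. A call in only 1 genotype is no test of a difference between them. That difference was tested as the interaction, in which the WT change is subtracted from the SK change, and it was called for 7 members, 12.5% against 4.79% of all transcripts and 6.98% of named genes. It was negative for 6 members (Cxcl14, Ccl5, Ccl17, Cxcl16, Ackr2 and Cxcr1; background 2.6%) and positive for 1, Ccl11 (background 2.19%).

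The largest interaction of genotype and oxygen among the members was that of Cxcl14, 1 of 5 CXC ligands made by resident cells or in the steady state. Of these 5, 3 rose and 1 fell in WT mice, and 2 rose and 1 fell in SK mice. Cxcl14, an epithelial chemokine that attracts monocytes and dendritic cell precursors, was at 6.92, 6.81 and 6.85 in WT RA and at 9.73, 9.66 and 9.83 in WT HO mice. It was at 7.38, 8.62 and 8.55 in SK RA and at 6.35, 6.95 and 6.45 in SK HO mice. The WT HO mice thus lay above all others, and the SK HO mice lay on either side of the narrow range of the WT RA mice. Cxcl14 rose 7.34-fold in WT mice (log2 change 2.88 ± 0.28 SE, adjusted p = 5.98e-05) and fell 3.04-fold in SK mice (-1.60 ± 0.28, adjusted p = 0.0139). The interaction was -4.48 ± 0.40 (adjusted p = 0.000101), and under hyperoxia SK mice were lower by 3.16 (adjusted p = 0.000129). In room air the SK mice were higher by 1.32 without passing the test (adjusted p = 0.0532, and 0.0442 with the replicate number as a block). SK RA 1 was the lowest of its group, and without it this difference was 1.73 (adjusted p = 0.00407). The fall in SK mice was not called without SK RA 2 or without SK RA 3, with adjusted p up to 0.0656.

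Cxcl17, a mucosal chemokine of airway epithelium that attracts myeloid cells, was at 6.87, 6.97 and 6.76 in WT RA and at 9.88, 9.85 and 9.95 in WT HO mice, an 8.14-fold rise (3.02 ± 0.30, adjusted p = 5.6e-05). It was at 7.41, 6.80 and 6.6 in SK RA and at 7.98, 9.16 and 7.98 in SK HO mice, a rise of 1.44 ± 0.30 (adjusted p = 0.0297, not called without SK RA 2 or SK RA 3). Every SK HO mouse lay above the SK RA mice and below the WT HO mice. The difference between SK HO and WT HO mice was -1.51 (adjusted p = 0.0119) and was not called without SK HO 1 or SK HO 3 (adjusted p up to 0.0563). The interaction was -1.58 ± 0.42 and missed the threshold (adjusted p = 0.0564).

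Cxcl16, a membrane-anchored chemokine that is also a scavenger receptor, was at 7.88, 8.04 and 8.09 in WT RA and at 9.94, 9.92 and 9.97 in WT HO mice. In the Sphk1-/- groups it was at 7.95, 8.43 and 8.20 in room air and at 8.89, 9.38 and 8.99 in hyperoxia. The RA groups overlapped, and the SK HO mice lay between them and the WT HO mice. The rise was 1.95 ± 0.16 in WT (adjusted p = 1.82e-05) and 0.89 ± 0.16 in SK mice (adjusted p = 0.0155, not called without SK RA 3 or SK HO 2). The interaction was -1.06 ± 0.23 (adjusted p = 0.0219), kept without WT RA 3, SK RA 1 or SK HO 2 and lost in the other 9 fits without 1 mouse (adjusted p up to 0.0616). Cxcl12, the stromal ligand of Cxcr4, was the only ligand that fell in WT mice. It was at 9.22, 9.29 and 9.37 in WT RA and 8.92, 8.66 and 8.84 in WT HO mice (-0.49 ± 0.15, adjusted p = 0.0499), and at 9.09, 9.36 and 9.40 in SK RA and 8.82, 8.42 and 8.84 in SK HO mice (-0.59 ± 0.15, adjusted p = 0.0692). The HO mice lay below the RA mice in both genotypes, but the WT call stands at the threshold and was lost in 10 of the 12 fits that left out 1 mouse, all but those without SK RA 1 or SK HO 2 (adjusted p up to 0.168). Cxcl13, which draws B cells into lymphoid follicles, was not called, and its highest value of 9.70 was that of SK HO 2.

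**Figure D2:**
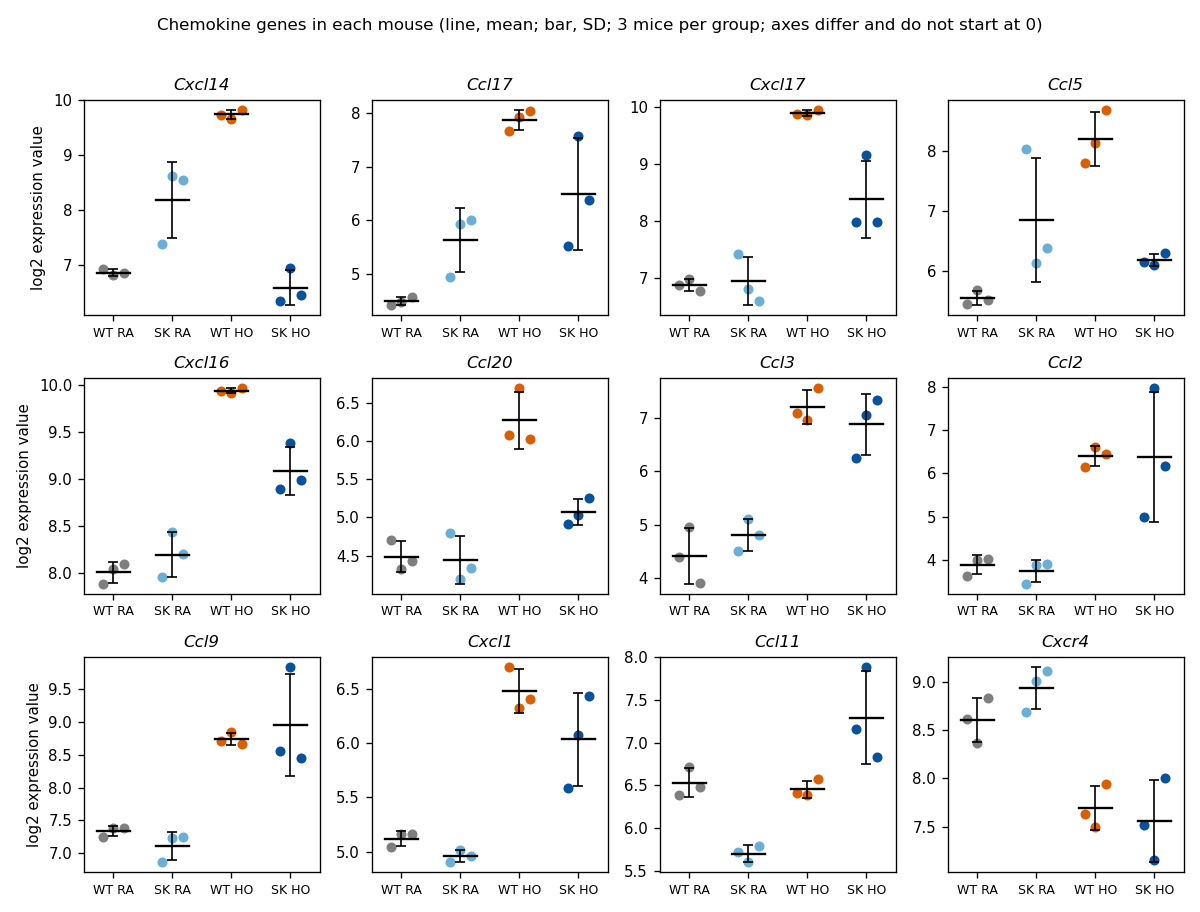
Log2 expression value (vertical axis) of 11 ligands and the receptor Cxcr4 in each mouse, by group (horizontal axis, 3 mice each), with the group mean as a line and the SD as a bar. The WT HO mice form the highest group for Cxcl14 (9.66 to 9.83), Ccl17, Cxcl17, Ccl5, Cxcl16 and Ccl20, while Ccl11 is highest in the SK HO mice (6.83 to 7.89) and Cxcr4 is lower in both HO groups.

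Among CC ligands tied to eosinophils and type 2 immunity, Ccl17 was called in WT and Ccl11 in SK mice. Ccl17 is a ligand of Ccr4 made by dendritic cells and macrophages. It was at 4.42, 4.46 and 4.57 in WT RA and at 7.66, 7.92 and 8.04 in WT HO mice (3.39 ± 0.43, adjusted p = 0.000326). All 3 WT RA values lay under 4.64, and against that level the WT HO mice were at least 9.38-fold higher. It was at 4.94, 5.93 and 6.01 in SK RA and at 5.51, 7.58 and 6.37 in SK HO mice, where the groups overlapped and the change was 0.86 ± 0.43 (adjusted p = 0.412). The interaction was -2.53 ± 0.61 (adjusted p = 0.0372). SK HO 2 reached nearly the level of the WT HO mice, and without it the interaction was -3.07 (adjusted p = 0.0026). The call was kept without SK HO 2 or SK RA 1 and lost in the other 10 fits without 1 mouse, with adjusted p up to 0.0898 and estimates from -3.07 to -2.04.

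Ccl11, eotaxin, which attracts eosinophils through Ccr3, showed the reverse. It was at 6.39, 6.72 and 6.48 in WT RA and at 6.41, 6.39 and 6.57 in WT HO mice (-0.07 ± 0.22, adjusted p = 0.89). It was at 5.72, 5.60 and 5.79 in SK RA and at 7.16, 7.89 and 6.83 in SK HO mice, a 3.01-fold rise (1.59 ± 0.22, adjusted p = 0.00432). SK mice were thus the lowest group in room air and the highest in hyperoxia, and the interaction of 1.66 ± 0.32 (adjusted p = 0.0118) was called under every alternative that was run. The differences between genotypes within room air (-0.83, adjusted p = 0.124) and within hyperoxia (0.84, adjusted p = 0.0541) did not pass the test. Of the other 4 ligands of this group, Ccl1 and Ccl26 were near background, and Ccl22 and Ccl24 had changes of 0.04 and -0.02 in WT and 0.09 and 0.58 in SK mice, none called. Ccl24, a further eotaxin, was at 6.67 in SK HO 2 and at 4.22 to 4.88 in the other 11 mice.

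The ligands known as macrophage inflammatory proteins and RANTES rose in WT mice in 4 of 5 cases. Ccl3, a macrophage product that attracts monocytes and neutrophils, was at 4.40, 4.96 and 3.91 in WT RA and at 7.08, 6.95 and 7.55 in WT HO mice (2.77 ± 0.32, adjusted p = 0.000179, and at least 2.55 against the background level). It was at 4.51, 5.11 and 4.80 in SK RA and at 6.24, 7.05 and 7.33 in SK HO mice (2.07 ± 0.32, adjusted p = 0.0076). The HO mice lay above the RA mice in both genotypes, and the interaction was -0.70 ± 0.45 (adjusted p = 0.49).

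Ccl9, a ligand of Ccr1, was at 7.25, 7.39 and 7.38 in WT RA and at 8.71, 8.85 and 8.67 in WT HO mice (1.41 ± 0.30, adjusted p = 0.00777). It was at 6.86, 7.23 and 7.24 in SK RA and at 8.56, 9.85 and 8.46 in SK HO mice (1.84 ± 0.30, adjusted p = 0.00889). Without SK HO 2, its highest value, the SK change was 1.40 (adjusted p = 0.00225). Ccl6, a related ligand of Ccr1, rose by 1.16 ± 0.21 in WT mice (adjusted p = 0.00311) and had an estimate of 0.88 ± 0.21 in SK mice, with an adjusted p of 0.0545. Ccl4 was not called in either (0.52 and 0.30).

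Ccl5, RANTES, which attracts T cells and monocytes, differed from these. It was at 5.45, 5.69 and 5.53 in WT RA and at 7.79, 8.12 and 8.68 in WT HO mice, a 6.24-fold rise (2.64 ± 0.40, adjusted p = 0.00108). In SK RA mice it was at 8.03, 6.13 and 6.39, and in SK HO mice at 6.15, 6.11 and 6.30 (-0.66 ± 0.40, adjusted p = 0.535). The SK HO mice lay below all WT HO mice by 2.01 on average (adjusted p = 0.0134), and the interaction was -3.30 ± 0.57 (adjusted p = 0.00668). SK RA 1 and WT HO 2, the mice with high adipocyte scores, were at 8.03 and 8.12. The WT rise was called in every fit without 1 mouse, that without WT HO 2 included, with estimates from 2.40 to 2.84. SK RA 1 held the highest SK RA value. Without it the SK change was -0.07 and the interaction -2.71 (adjusted p = 0.00081). The difference within hyperoxia was not called without WT HO 3 (adjusted p = 0.0606).

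Of the 4 monocyte chemoattractants, 3 rose in WT and 1 in SK mice. Ccl2, the principal ligand of Ccr2, was at 3.64, 4.01 and 4.03 in WT RA and at 6.15, 6.6 and 6.45 in WT HO mice (2.50 ± 0.54, adjusted p = 0.00902). All RA values of both genotypes lay under the background level, against which the rises come to at least 1.76 in WT and 1.74 in SK mice. It was at 3.45, 3.89 and 3.90 in SK RA and at 4.99, 7.97 and 6.16 in SK HO mice (2.63 ± 0.54, adjusted p = 0.0305). The SK HO mice were spread far more widely than the WT HO mice (SD 1.50 against 0.23), and the interaction was 0.12 ± 0.77 (adjusted p = 0.962). The sign of this interaction was not settled, since it was -0.67 without SK HO 2 (adjusted p = 0.44) and -0.02 without SK RA 1. Without SK HO 2 the SK rise was 1.83 (adjusted p = 0.021), and it was not called without WT RA 2, WT HO 3, SK HO 3 or any 1 of the SK RA mice, with adjusted p up to 0.0893. Ccl12 and Ccl8 rose in WT mice by 1.18 and 0.61 from RA means under background (at least 0.11 and 0.13 against it), the Ccl8 call being kept only without SK RA 1, SK RA 3, SK HO 2 or SK HO 3 among the 12 fits without 1 mouse (adjusted p otherwise up to 0.145), while their SK estimates of 0.82 and 0.21 were not called. Ccl7 was not called in WT (0.64) or SK mice (1.10), although the HO mice lay above the RA mice in both. Ccl8, which acts on Ccr8 in mice, was lower in SK HO than in WT HO mice by 0.70 (adjusted p = 0.0449), a call kept without SK RA 1 or SK HO 2 and lost in the other 10 such fits (adjusted p up to 0.153).

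The ELR CXC ligands attract neutrophils through Cxcr2, and 2 of 5 rose in WT and 1 of 5 in SK mice. Cxcl1, the mouse counterpart of the Gro chemokines, was at 5.04, 5.16 and 5.16 in WT RA, 6.71, 6.33 and 6.41 in WT HO, 4.90, 5.01 and 4.96 in SK RA and 5.59, 6.08 and 6.44 in SK HO mice. It rose by 1.36 ± 0.19 in WT (adjusted p = 0.000645) and by 1.08 ± 0.19 in SK mice (adjusted p = 0.0141, not called without SK RA 2, SK RA 3 or SK HO 2). Cxcl5, which in mouse lung is made by epithelium, was at 3.91, 4.0 and 4.55 in WT RA and at 6.03, 5.69 and 6.26 in WT HO mice (1.84 ± 0.39, adjusted p = 0.00837, and at least 1.35 against background). It was at 4.51, 4.26 and 4.09 in SK RA and at 5.07, 5.59 and 6.98 in SK HO mice, where every HO mouse lay above every RA mouse but the change of 1.60 ± 0.39 missed the threshold (adjusted p = 0.0619). It passed without SK HO 1, the lowest of them (adjusted p = 0.0217), and with the replicate number as a block (adjusted p = 0.0456). The interactions of Cxcl1 (-0.29) and Cxcl5 (-0.24) were not called. Cxcl2 had changes of 0.50 and 1.00 in WT and SK mice, and Cxcl3 of 0.68 and 0.93, none called. Cxcl15, lungkine, a chemokine made by lung epithelium, had a change of -0.37 in WT mice (adjusted p = 0.0854) and of -0.03 in SK mice.

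The promoters of these genes are shown because Cxcl1, Cxcl2 and Cxcl3 are neighbouring copies that carry the same motif, while only Cxcl1 was called and Cxcl3 was near background. The motif GGGNNNTTCC, a simplified form of the sites bound by NF-κB, was searched on both strands in the 250 bases before the start of each gene in the RefSeq annotation of GRCm38.p6. It was found for 9 of the 42 members with a promoter in that table (Ccl1, Ccl9, Ccl20, Ccr3, Ccr6, Cxcl1, Cxcl2, Cxcl3 and Cxcl10), or 21.4%, and in 4.65% of 32851 promoters. The first share is counted by gene and the second by promoter, so the difference between them is no measure of enrichment. Of the 15 members with a promoter that rose in WT HO mice, 4 held it (Ccl9, Ccl20, Cxcl1 and Cxcl10), and of the other 27, 5 did. The sequences below were taken from chr5:90890995-90891244, chr5:90903649-90903898 and chr5:90785851-90786100 on the plus strand, chr5:92348890-92349139 on the minus strand and chr1:83116516-83116765 on the plus strand, with Cxcl10 and Ccl20 added as motif carriers of other subfamilies. They read 5′ to 3′ toward the start, and capitals mark the motif, where matches on both strands may overlap.
Cxcl1: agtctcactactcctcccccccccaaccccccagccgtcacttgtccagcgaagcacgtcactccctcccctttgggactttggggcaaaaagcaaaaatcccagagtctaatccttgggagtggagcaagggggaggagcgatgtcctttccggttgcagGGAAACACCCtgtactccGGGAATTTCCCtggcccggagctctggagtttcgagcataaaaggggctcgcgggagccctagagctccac
Cxcl2: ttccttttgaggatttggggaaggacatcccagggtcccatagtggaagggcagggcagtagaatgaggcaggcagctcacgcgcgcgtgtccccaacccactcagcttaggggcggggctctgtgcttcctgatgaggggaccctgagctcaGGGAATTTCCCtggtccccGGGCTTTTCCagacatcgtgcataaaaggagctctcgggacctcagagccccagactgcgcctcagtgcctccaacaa
Cxcl3: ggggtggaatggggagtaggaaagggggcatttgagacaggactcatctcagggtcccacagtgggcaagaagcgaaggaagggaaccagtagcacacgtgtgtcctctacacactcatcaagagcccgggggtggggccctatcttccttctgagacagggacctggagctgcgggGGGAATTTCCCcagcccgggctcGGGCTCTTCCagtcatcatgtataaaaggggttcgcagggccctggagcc
Cxcl10: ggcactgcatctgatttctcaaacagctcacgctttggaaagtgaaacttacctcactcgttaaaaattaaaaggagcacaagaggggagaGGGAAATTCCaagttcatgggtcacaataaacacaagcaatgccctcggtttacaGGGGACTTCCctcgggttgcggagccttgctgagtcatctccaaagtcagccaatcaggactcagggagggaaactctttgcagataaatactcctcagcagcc
Ccl20: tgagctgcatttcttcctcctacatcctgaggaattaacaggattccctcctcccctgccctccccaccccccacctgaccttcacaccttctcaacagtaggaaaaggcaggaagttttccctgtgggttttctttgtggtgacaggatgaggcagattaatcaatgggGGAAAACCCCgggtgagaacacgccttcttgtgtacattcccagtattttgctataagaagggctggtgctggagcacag

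In Cxcl1 a match on both strands spanned the bases 71 to 61 before the start, in Cxcl2 the bases 97 to 87 and in Cxcl3 the bases 73 to 63, all with the letters GGGAATTTCC on the strand shown. The 5 promoters together held 12 matches. No other motif was searched, and binding of any factor was not measured.

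Of the 3 CXC ligands induced by interferon, Cxcl10 was called and Cxcl9 and Cxcl11 were not. Cxcl10, which attracts T cells and NK cells through Cxcr3, was at 4.58, 4.77 and 5.02 in WT RA and at 5.53, 5.56 and 6.15 in WT HO mice (0.96 ± 0.28, adjusted p = 0.0385). It was at 4.63, 4.23 and 3.84 in SK RA and at 4.98, 5.93 and 5.65 in SK HO mice (1.29 ± 0.28, adjusted p = 0.0361). The HO mice lay above the RA mice in both genotypes. The WT call was lost in 8 of the 12 fits without 1 mouse, all but those without SK RA 1, SK RA 3, SK HO 1 or SK HO 2, and the SK call in 9, all but those without SK RA 1, WT HO 3 or SK HO 1, each with adjusted p up to 0.14. Cxcl9 had estimates of -0.34 in WT and -0.04 in SK mice.

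Among the mucosal and lymphoid CC ligands, Ccl20 and Ccl27a rose in WT mice. Ccl20, an epithelial chemokine for cells with Ccr6, was at 4.71, 4.33 and 4.43 in WT RA and at 6.08, 6.69 and 6.03 in WT HO mice (1.78 ± 0.21, adjusted p = 0.000223). It was at 4.80, 4.20 and 4.34 in SK RA and at 4.92, 5.03 and 5.25 in SK HO mice (0.62 ± 0.21, adjusted p = 0.189). The SK HO mice lay between both RA groups and the WT HO mice, lower than the latter by 1.20 (adjusted p = 0.00698), and the interaction of -1.16 ± 0.30 missed the threshold (adjusted p = 0.0522). Ccl27a, a ligand of Ccr10 in skin and mucosa, was at 5.08, 4.95 and 4.59 in WT RA, 5.85, 5.25 and 6.05 in WT HO, 5.74, 5.94 and 6.03 in SK RA and 5.73, 5.55 and 5.95 in SK HO mice. The WT RA mice were thus lower than the other 3 groups, which overlapped. Ccl27a was the only member called between the genotypes in room air (1.03 ± 0.21, adjusted p = 0.0429), where 1.15% of all transcripts were called. The gene has near-identical copies in the mouse genome that its probes may not tell apart, and with the mean over both of its transcripts neither this call nor that in WT HO against WT RA mice held. The room air call was kept without WT HO 2, WT HO 3 or SK HO 2 and lost in the other 9 fits without 1 mouse (adjusted p up to 0.136), and the WT hyperoxia call was lost without WT HO 1, WT HO 3 or WT RA 3 (adjusted p up to 0.0786). A further 33 transcripts that list several symbols, among them names of the Ccl19, Ccl21 and Ccl27 copies, were not assigned to a gene. Ccl25 and Ccl28 were not called, nor were the lymphocyte chemokine Xcl1 and the membrane-bound Cx3cl1.

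Of the 22 receptors, 5 were called in WT and 1 in SK mice. Cxcr4, the receptor of Cxcl12, was the receptor called in both. It was at 8.61, 8.37 and 8.83 in WT RA and at 7.63, 7.50 and 7.94 in WT HO mice (-0.91 ± 0.22, adjusted p = 0.0168). It was at 8.69, 9.01 and 9.11 in SK RA and at 7.52, 7.15 and 8.0 in SK HO mice (-1.38 ± 0.22, adjusted p = 0.00889). All 6 HO mice lay below all 6 RA mice. The WT call was lost without WT HO 1, WT HO 2, WT RA 1 or WT RA 3 (adjusted p up to 0.0696) and the SK call in none of the 12 fits without 1 mouse, and the interaction was -0.47 (adjusted p = 0.512).

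Cxcr1, a neutrophil receptor for ELR CXC ligands, was at 5.08, 4.65 and 4.77 in WT RA and at 5.51, 5.70 and 5.97 in WT HO mice (0.89 ± 0.16, adjusted p = 0.0032). It was at 4.78, 4.88 and 4.85 in SK RA and at 4.56, 4.88 and 4.91 in SK HO mice (-0.05 ± 0.16, adjusted p = 0.936). Only the WT HO mice stood apart, the SK HO mice lay 0.95 below them (adjusted p = 0.00583), and the interaction was -0.95 ± 0.23 (adjusted p = 0.0385). That interaction was kept without WT RA 1, WT HO 1 or SK HO 2, lost in the other 9 fits without 1 mouse (adjusted p up to 0.1) and lost in 6 of 10 other alternatives. Cxcr2, the main neutrophil receptor of the mouse, had an estimate of 0.63 in both genotypes and was not called (adjusted p = 0.266 and 0.46).

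Of the atypical receptors, Ackr2 and Ackr3 rose in WT mice. Ackr2, which takes up inflammatory CC chemokines, was at 7.70, 7.91 and 7.70 in WT RA and at 8.33, 8.58 and 8.44 in WT HO mice (0.68 ± 0.15, adjusted p = 0.0114, and 0.0512 without WT HO 2). It was at 8.0, 8.52 and 8.49 in SK RA and at 7.91, 8.04 and 7.95 in SK HO mice (-0.37 ± 0.15, adjusted p = 0.305). WT HO and SK RA mice were thus both above the WT RA mice, and the interaction was -1.05 ± 0.22 (adjusted p = 0.0184), lost without WT RA 1, SK RA 2 or WT HO 2 (adjusted p up to 0.052). Ackr3, which takes up Cxcl12, rose by 0.91 ± 0.16 in WT mice (adjusted p = 0.00316) and had an estimate of 0.45 in SK mice. It was lower in SK HO than in WT HO mice by 0.64 (adjusted p = 0.0442), a call kept without SK RA 1 or SK HO 2 and lost in the other 10 fits without 1 mouse (adjusted p up to 0.165). Ccr8 rose in WT mice by 0.88 ± 0.25 (adjusted p = 0.0345), a call lost without WT RA 1, WT RA 2 or any 1 of the WT HO mice (adjusted p up to 0.134). Ccr1, a receptor of monocytes and neutrophils for Ccl3, Ccl6 and Ccl9, had estimates of 1.01 (adjusted p = 0.0623) and 1.11 (adjusted p = 0.119), with the HO mice above the RA mice in both genotypes. Cx3cr1, the fractalkine receptor of monocytes, had an estimate of -0.92 in WT mice (adjusted p = 0.0543), with every WT HO mouse below every WT RA mouse, and of 0.29 in SK mice.

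Ligands and their receptors were set side by side. For several ligands that rose in WT mice the main receptor was near background in whole-lung RNA, namely Ccr4 for Ccl17, Ccr6 for Ccl20, Cxcr6 for Cxcl16 and Ccr10 for Ccl27a. Ccr3, the receptor of Ccl11, was also near background. For Ccl2 the receptor Ccr2 was above background and had changes of 0.16 in WT and 0.45 in SK mice, neither called. Cxcr3, the receptor of Cxcl10, had changes of 0.42 and -0.10 that were not called. For Cxcl12, the ligand and Cxcr4 fell in WT mice while Ackr3 rose, and in SK mice only Cxcr4 passed the test. A receptor carried by few cells can lie near background in whole lung, and protein was not measured.

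**Figure D3:**
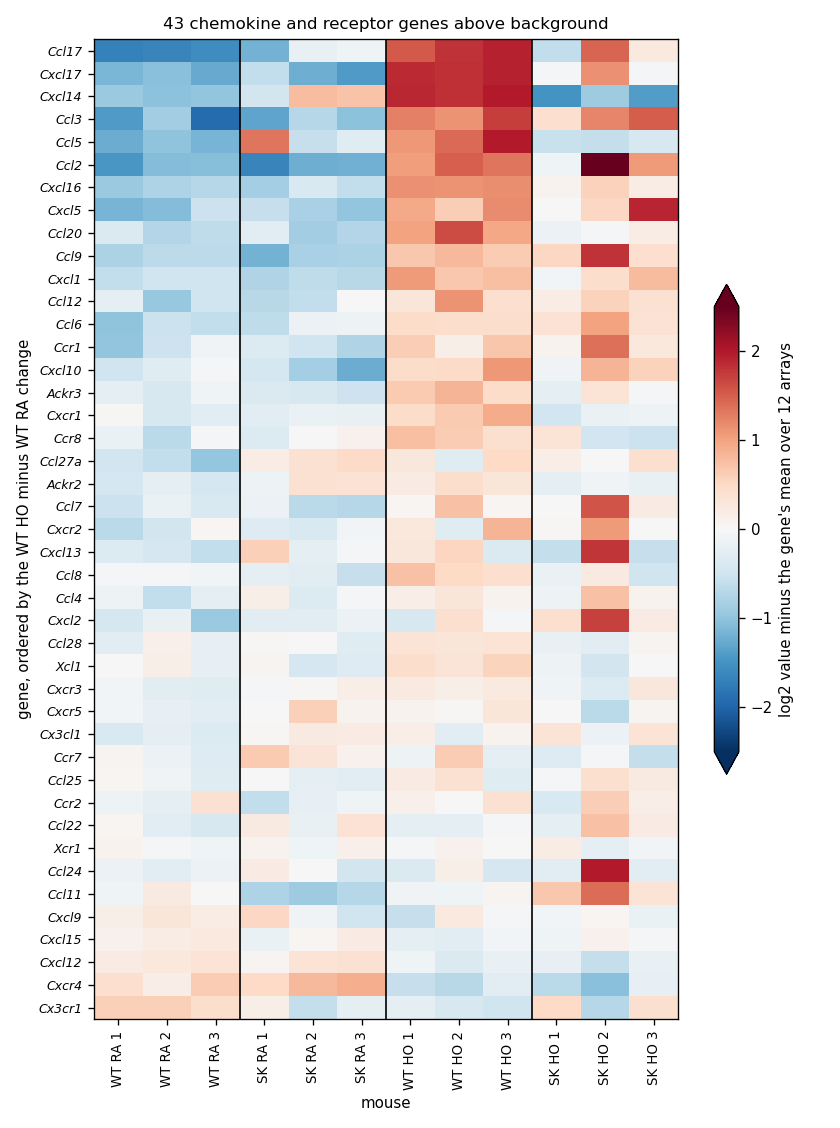
Log2 value of 43 members above background minus the mean of each gene over the 12 arrays (colour), by mouse (columns, grouped by genotype and oxygen) and by gene (rows, ordered by the WT HO minus WT RA change). The upper rows are high in all 3 WT HO mice. SK HO 2 is the highest of the 12 arrays for 14 of the 43 genes.

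Many of the members lie beside each other in the genome. In the RefSeq annotation of GRCm38.p6, 35 of the 56 members formed 9 groups in which the gap between neighbours was at most 200 kb. In the group Ccl2, Ccl7, Ccl11, Ccl12, Ccl8 and Ccl1, 3 of 6 rose in WT and 2 of 6 in SK mice. Of these only Ccl2 was called in both, while Ccl8 and Ccl12 were called in WT and Ccl11 in SK mice. In the group Ccl5, Ccl9, Ccl6, Ccl3 and Ccl4, 4 of 5 rose in WT and 2 of 5 in SK mice. In the group Cxcl5, Cxcl3, Cxcl15, Cxcl1 and Cxcl2 these were 2 of 5 and 1 of 5. In the group of receptors Ccr9, Cxcr6, Xcr1, Ccr1, Ccr1l1, Ccr3 and Ccr2, 0 of 7 were called in either genotype. Neighbouring genes thus did not share a call throughout.

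For several members the spread among the SK HO mice was carried largely by SK HO 2. For Ccl3, Cxcl1 and Cxcl5, by contrast, SK HO 2 lay between SK HO 1 and SK HO 3. SK HO 2 held the highest value of all 12 arrays for 15 of the 56 members, while it did so for 7.65% of all transcripts. WT HO 3 came next with the highest value for 10 members (10.3% of all transcripts). SK HO 2 also held the lowest value for 9 members, as did WT RA 1. SK HO 2 exceeded the mean of SK HO 1 and SK HO 3 by 2.39 for Ccl2, 2.38 for Cxcl13, 2.26 for Ccl24, 2.05 for Cxcl3, 1.64 for Ccl17, 1.49 for Ccl7 and 1.41 for Cxcl2. SK HO 2 lay below that mean by 1.17 for Cx3cr1 (estimate -1.17). Its score of 12 neutrophil markers was 0.96, against 0.22 and 0.18 in SK HO 1 and SK HO 3 and -0.15 to 0.35 in the WT HO mice. Its alveolar macrophage score was 0.25, against -0.53 and -0.36, its monocyte score 0.44, against -0.33 and 0.02, and its interstitial macrophage score 0.20, against -0.16 and 0.02. The part of these cells in its chemokine values was not tested. Without SK HO 2, of the 10 members called in SK HO against SK RA mice, Cxcl1 (adjusted p = 0.0533), Cxcl10 (0.14) and Cxcl16 (0.0518) were no longer called.

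Between the genotypes under hyperoxia, 8 members were lower and 0 higher in SK HO than in WT HO mice, 14.3% of the members against 5.74% of all transcripts (2.92% lower and 2.82% higher) and 8.75% of named genes. At an unadjusted p under 0.05 there were 16 members in either direction, but the share of all transcripts at that threshold was not counted. The 8 were Cxcl14, Ccl5, Cxcl17, Ccl20, Cxcr1, Cxcl16, Ccl8 and Ackr3, with differences from -3.16 to -0.64. Of these, Ccl20, Cxcl14, Cxcl16 and Cxcr1 were called under every alternative and in every fit without 1 mouse. The SK HO mice lay below all WT HO mice for 15 members and above them for 1, where 23.6% of all transcripts were separated (12.8% below and 10.8% above). This comparison shares the WT HO mice with that of WT HO against WT RA. In room air 1 member was called, Ccl27a, which was higher in SK mice (0.556% of all transcripts were higher and 0.59% lower). At an unadjusted p under 0.05 there were 10 members, again without a share of all transcripts to set beside them. The SK RA mice lay above all WT RA mice for 12 members and below them for 6, where 18.8% of all transcripts were separated (10.2% above and 8.63% below).

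Regulators of chemokine genes and the signal path of their receptors were read from lists of textbook genes. Of all named genes, 21.6% were called with hyperoxia in WT mice, 3.58% in SK mice and 6.98% for the interaction. Of all transcripts these shares were 14.9%, 2.34% and 4.79%. Of 21 inducers of chemokine genes that were measured (NF-κB and interferon regulatory factors, their inhibitors and inducing cytokines), 10 rose and 0 fell in WT mice, with a median of 0.59, and 1 rose and 0 fell in SK mice, with a median of 0.23. The smallest adjusted p in WT mice were those of Rela (1.20), an NF-κB subunit, Nfkb2 (1.25), a further subunit, and Nfkbia (1.31), an inhibitor and target of NF-κB. Rela was at 9.70 to 9.89 in WT RA, 10.93 to 11.10 in WT HO, 9.78 to 10.27 in SK RA and 10.26 to 10.53 in SK HO mice. Tnf was the member of the list that rose in SK mice (0.78). The interaction was called for 3 of the 21, all negative, namely Irf3 (-1.13), Rela (-0.86) and Nfkbia (-1.09). Of 19 transducers of receptor signals, 5 rose and 4 fell in WT mice and 0 rose and 2 fell in SK mice, with medians of 0.05 and -0.02. Among them Rgs1, which ends G protein signals in leukocytes, rose by 1.54 in WT mice, and Arrb1, an arrestin that turns receptors off, fell by 0.86 (estimate -0.86). Rgs2 and Arrb2, of the same families, were called the other way in WT mice (-0.59 and 0.48). In SK mice the 2 that fell were Rgs2 (-1.3) and Arrb1 (-0.69). Of 4 further chemokine-like genes outside the naming rule, Ccrl2 fell in both genotypes (-0.84 and -1.69), Cmklr1, the chemerin receptor, rose in WT mice (0.70), and Ppbp, a platelet chemokine, rose in SK mice (1.21). Pf4 was not called.

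The markers of cells that make or receive chemokines differed between the groups as well. Beside the counts that follow stand the shares of named genes called, 21.6% in WT mice, 3.58% in SK mice and 6.98% for the interaction. A count near these shares is not a trait of its list. Of 9 alveolar macrophage markers, 5 rose in WT mice, and their score was -0.73 to -0.54 in WT RA, -0.06 to 0.06 in SK RA, 0.76 to 0.90 in WT HO and -0.53 to 0.25 in SK HO mice. Fabp4, a gene of macrophages and adipocytes in this list, was not called and was at 9.70 in WT HO 2 and 9.59 in SK RA 1. Of 7 interstitial macrophage markers, 5 rose in WT and 1 in SK mice. Of 7 NK cell markers, 4 rose in WT and 0 in SK mice, with scores of 0.41 to 0.80 in WT HO and -0.40 to -0.14 in SK HO mice. Of 7 monocyte markers, 3 rose and 1 fell in WT, and 0 rose and 1 fell in SK mice. Of 12 neutrophil markers, 0 rose and 2 fell in WT and 2 rose in SK mice, with scores of -0.15 to 0.35 in WT HO and 0.18 to 0.96 in SK HO mice. T cell markers fell in 4 of 6 cases in SK mice, with scores of 0.29 to 0.50 in SK RA and -0.52 to -0.32 in SK HO mice. Mast cell markers went opposite ways in the genotypes, as 4 of 6 fell in WT and 4 rose in SK mice, and 4 had a positive interaction (median over the 6 of 2.61). Their score was 0.18 to 0.40 in WT RA, -0.73 to -0.62 in WT HO, -0.52 to -0.20 in SK RA and 0.65 to 0.97 in SK HO mice. Cpa3, a mast cell protease, had an interaction of 4.47. The SK HO mice were thus the highest group for mast cell markers as they were for Ccl11. The lowest group was WT HO for these markers and SK RA for Ccl11, and a link was not tested. Of 7 B cell markers, 4 rose in WT and 3 fell in SK mice, and 5 had a negative interaction. Their score was -0.63 to -0.30 in WT RA, 0.18 to 0.43 in WT HO, 0.29 to 0.64 in SK RA and -0.46 to -0.12 in SK HO mice. Of 6 dendritic cell markers, 2 rose in WT and 1 fell in SK mice, and of 7 alveolar type 2 markers, 4 fell in WT and 0 were called in SK mice. The scores were highest in the WT HO mice for alveolar macrophages and NK cells, as the values of Ccl17, Cxcl16 and Ccl5 were, and the part of these cells in the chemokine values was not tested.

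**Figure D4:**
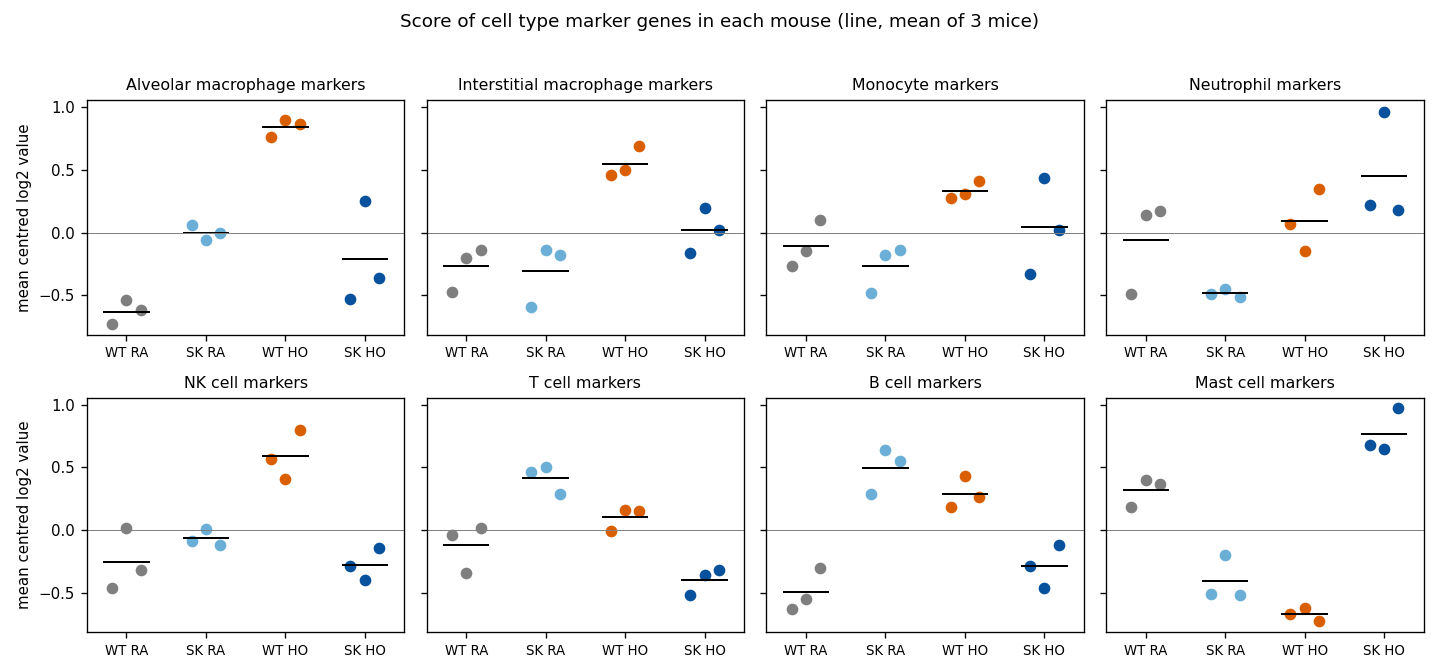
Score of 8 lists of cell type markers (vertical axis, mean over the genes of the log2 value minus its mean over 12 arrays) in each mouse, by group (horizontal axis), with lines at the group means. The alveolar macrophage score of the WT HO mice is 0.76 to 0.90 and lies above all other mice, the neutrophil score of SK HO 2 is 0.96, and the mast cell scores of the SK HO mice are 0.65 to 0.97.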

How the data were processed

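Total RNA of whole superior-lobe lung tissue was hybridized to Affymetrix MoGene 2.0 ST arrays, 1 per mouse, with 3 mice in each of 4 groups taken from the sample titles. The deposited values are log2 expression values that the authors made by RMA (background correction, quantile normalization and median polish) in Partek Genomics Suite 6.6. Quantile normalization gives the arrays nearly the same distribution, so a shift shared by most transcripts cannot be seen, and low values are compressed toward background. The precision is limited by the number of arrays. A genome build for the arrays is not given in the sources used.

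Of 41345 transcripts, 25341 were in the platform's gene table, 23521 with 1 symbol and 1820 with several. Only those with 1 symbol were named, which gave 22180 genes, each represented by its transcript with the highest mean.

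limma 3.58.1 in R 4.3.3 was fitted to all transcripts and all 12 arrays with 1 mean per group (lmFit, eBayes, 8 residual degrees of freedom and a prior of 3.25), and p-values were adjusted by the Benjamini-Hochberg method over the 41345 transcripts. All adjusted p given are limma's, two-sided, and a gene was called at an adjusted p under 0.05. Differences are given ± SE, and groups as first minus second. Whether mice of a group shared a litter is not stated, so the p-values measure the spread between these mice. The fit was run on simulated data with independent noise and changes in the WT HO group alone. Such data hold no deviating array and no correlation of same-numbered mice, so that run is no check on these calls. Tables and plots were made with Python 3.11.15, pandas 2.3.3 and matplotlib 3.10.9.

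The members and lists were chosen with earlier results of these data known. The value in every mouse was given for up to 6 members that rose and up to 6 that fell most in each comparison and for Ccl2, Ccl5, Cxcl5 and Cxcl14, with further members described by choice. Alternatives changed the variance estimate, the filter on low values (40th percentile), the transcripts tested, the scaling, the arrays in the fit, a replicate block, a covariate of Y-linked genes, the transcript of a gene and the mice left out.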

Additional observations from a re-analysis of the deposited data

Results flagged for a closer look

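The change with hyperoxia differed between the genotypes, by the interaction in the limma fit, for 7 members. The interaction on the log2 scale was -4.48 for Cxcl14, which rose in WT and fell in SK mice. It was -3.30 for Ccl5, -2.53 for Ccl17, -1.06 for Cxcl16 and -0.95 for Cxcr1, whose WT estimates were above the SK estimates. It was -1.05 for Ackr2, which rose in WT mice and had an estimate of -0.37 in SK mice. It was 1.66 for Ccl11, the member called in SK mice alone. Groups of 3 mice are too small for a test of a single outlying mouse.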

How the results depend on the processing

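No called result changed direction under any alternative. Over 1325 values of single members, 1134 stayed on the same side of the threshold, 177 lost a call and 14 gained one. These values cover only the results called in the report and those of Ccl2, Ccl5, Cxcl5 and Cxcl14. Gains by other members are not among the 14. With 1 transcript per named gene, for example, lower members in SK HO against WT HO numbered 11 (8 in the report). Of the 1134, 13 values changed sign, all in results of Ccl2 or Cxcl5 that were not called and lie near 0 (interaction and SK HO against WT HO), with values from -0.67 to 0.67. Among them the Ccl2 interaction of 0.12 became -0.67 without SK HO 2, the Cxcl5 interaction of -0.24 became 0.16 without SK HO 1, and in SK HO against WT HO without SK HO 1 Ccl2 went from -0.02 to 0.67 and Cxcl5 from -0.11 to 0.30. Calls made under every alternative numbered 15 of 22 in WT HO against WT RA, 0 of 10 in SK HO against SK RA, 0 of 1 in SK RA against WT RA, 4 of 8 in SK HO against WT HO and 3 of 7 for the interaction (Ccl11, Ccl5 and Cxcl14). In SK HO against SK RA, higher members numbered 5 (8 in the report) with the ordinary residual variance, 5 with the Y-linked covariate and 0 with only the groups compared, and lower members 1 and 0 (2 in the report) with the ordinary variance and with only the groups compared, where all transcripts gave 41 higher and 52 lower. In SK RA against WT RA, higher members (1 in the report) numbered 0 with the ordinary variance, with arrays centred on their median, with only the groups compared and with the mean over the transcripts of a gene, and 2 with an intensity trend and robust prior, above the 40th percentile, with 1 transcript per gene, after further quantile normalization, with the Y-linked covariate and without SK RA 1 and SK HO 1 together. There 1 member was lower with 1 transcript per gene (0 in the report). In SK HO against WT HO, 1 member was higher (0 in the report) with the trend and robust prior, above the 40th percentile, with 1 transcript per gene and after further quantile normalization, and 5 were lower (8 in the report) with only the groups compared. Centring the arrays on their median left 2 of the 6 members with a negative interaction. It also moved the split of all transcripts in SK RA against WT RA from 230 higher and 244 lower to 123 and 201. The fit of only the groups compared could not be run for the interaction. With the Y-linked covariate, the interactions of Ccl17 (adjusted p = 0.0847) and Cxcr1 (0.0893) were lost. So was Ackr3 in SK HO against WT HO (0.0628). In SK HO against SK RA, Ccl2 (0.0648), Cxcl10 (0.076) and Cxcl17 (0.0564) were lost. In SK RA against WT RA, Cxcl14 was gained (0.0497). The cause of these changes was not tested.

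With the replicate block, SK RA against WT RA gave 2 higher members, and over 58 results of single members 3 calls were lost (the Cxcr1 interaction, Ackr3 in SK HO against WT HO and Cxcl10 in WT HO against WT RA), 2 were gained (Cxcl5 in SK HO against SK RA, adjusted p = 0.0456, and Cxcl14 in SK RA against WT RA, adjusted p = 0.0442) and 0 turned. The 58 results were likewise those called in the report and those of Ccl2, Ccl5, Cxcl5 and Cxcl14, so gains by other members are not counted. The block gave 10 higher members in SK HO against SK RA. The numbers are not known to pair the mice: same-numbered mice of different groups had correlations of their deviations from -0.0609 to 0.398, above 0.1 in 9 of 18 pairs (among them all 3 of SK RA and SK HO, 0.193 to 0.398), and in 27 of 36 comparisons of a mouse with another group it correlated best with the mouse of its own number.

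Without 1 mouse in turn, WT HO against WT RA gave 16 to 21 higher and 0 to 3 lower members, SK HO against SK RA 3 to 9 and 1 to 2, SK RA against WT RA 0 to 2 and 0 to 1, SK HO against WT HO 0 to 1 and 5 to 10, and the interaction 1 to 2 positive and 2 to 7 negative. In SK HO against SK RA, higher members fell to 4 without SK RA 2, 3 without SK RA 3 and 5 without SK HO 2, and lower members to 1 without SK RA 2 or SK RA 3. Lower members in SK HO against WT HO numbered 5 without WT HO 3 or SK HO 3. Negative interactions numbered 2 without SK RA 2 and 3 without WT RA 1, WT RA 2, SK RA 3, WT HO 2, WT HO 3 or SK HO 3. Lower members in WT HO against WT RA numbered 0 without WT HO 1, WT HO 2, WT RA 1 or WT RA 3. With 3 arrays per group, differences that missed the threshold are not shown to be absent, and values near background allow no firm fold.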
